A study of Danio rerio with 20 samples.

Results

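Axon guidance genes of the semaphorin, plexin, neuropilin, slit, robo, Unc5, Dcc and netrin families were followed in 20 single neurons of the zebrafish pallium. Genes were taken by name, as every row of the count table whose gene name begins with the name of one of these families. That rule found 66 of 18820 rows. One of them, unc50, encodes no guidance protein and was kept out. It averaged 11.8 CPM (counts per 1000000 counts of the library) in synchronized cells and 13.6 CPM in non-synchronized cells. Of the other 65 rows, 54 had a mean of at least 1 CPM over all 20 libraries, and these are called measured below. The names robo2 and plxnb2a each stand for 2 rows, which are told apart by their Ensembl identifiers.

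The question of the experiment was how neurons that join the slow synchronized calcium oscillation of the pallial Dc region differ in their transcripts from neurons that stay out of it. Neurons were picked by two-photon imaging and drawn into glass pipettes 1 by 1, 10 with synchronized and 10 with non-synchronized calcium activity. All came from Tg(HuC:H2B-GCaMP6f) fish, 4 to 5 weeks old, in which the neuronal HuC promoter drives a nuclear calcium indicator. Every fish received conspecific alarm substance (CAS), so cells of both groups had met the alarm cue and none came from unexposed fish. The labels do not name the fish behind a cell, and the cell numbers 5, 6 and 22 occur in both groups without a word on what a number marks. Each group therefore counts as 1 sample, no test was computed, and each SD below is the spread between 10 single cells.

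Semaphorins, slits and netrins are ligands, secreted or held on the cell surface, that steer growing axons by attraction or repulsion. Plexins, often together with neuropilins, receive semaphorins, while robos receive slits, and Dcc and Unc5 proteins receive netrins. In the adult brain many of these genes stay on, and their proteins are known to act on dendritic spines, synapse number and synaptic strength.

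Libraries held 795838 to 2493351 counts in synchronized cells and 1131532 to 3144155 counts in non-synchronized cells. Neuronal markers were present in every cell, with summed levels of 4372 to 11013 CPM in synchronized cells and 4105 to 9847 CPM in non-synchronized cells. The sum of 3 GABAergic markers exceeded that of 3 glutamatergic markers in 1 synchronized cell (4-1) and in 5 non-synchronized cells (5, 6, 13, 18 and 22). Over 1000 CPM of microglia or red blood cell markers stood in 2 synchronized cells (4-1 and 5) and in 5 non-synchronized cells (5, 6, 13, 22 and 19-1). Of the 12 microglia markers 8 were found, with summed levels of 0 to 327 CPM in synchronized cells and 0 to 2922 CPM in non-synchronized cells. For red blood cell markers 6 of 8 were found, with 0 to 11268 CPM in synchronized cells and 0 to 15017 CPM in non-synchronized cells. Transmitter type and group cannot be fully told apart in these 20 cells. The part of other cell types in the results was not tested. Results are therefore also given without the 6 cells richer in GABAergic markers, which leaves 9 synchronized and 5 non-synchronized cells, and without the 7 cells rich in microglia or red blood cell markers, which leaves 8 and 5.

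Summed, the guidance genes stood at similar levels in synchronized and non-synchronized neurons, and the groups differed in single members. Summed over all 65 rows, the level was 2702 ± 821 CPM in synchronized cells and 2641 ± 678 CPM in non-synchronized cells. Each synchronized cell had counts for 27 to 43 of the genes (median 30), and each non-synchronized cell for 27 to 41 (median 33). When every library was thinned to 795838 counts, these numbers were 21 to 36 (median 27) and 20 to 40 (median 30). Over all genes and without thinning, the median was 9066.5 genes with counts in synchronized cells and 8322 in non-synchronized cells.

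For each gene the log2 ratio is that of the mean CPM in synchronized cells over the mean CPM in non-synchronized cells, after 1 CPM was added to both. Only 6 of the 54 measured genes were at least 2-fold higher in synchronized cells, which is 11.1%, where 26.7% of all 14404 measured genes were. In the other direction 17 of 54 were at least 2-fold higher in non-synchronized cells, or 31.5%, beside 23.3% of all measured genes. A higher mean in synchronized cells by any amount was found for 24 of 54 genes, or 44.4%, beside 51.9% of all. The median log2 ratio was -0.38 for the guidance genes and 0.06 for all measured genes. For nrp1a and slit2, which had no counts in synchronized cells, the ratios of -6.35 and -3.84 depend on the 1 CPM added. Both lie below the median of the guidance genes, so their exact size does not enter it. Close to the limit were PLXNA1, plxnc1, plxnb2b and plxna2, just under it at 0.9996, 0.98, 0.97 and 0.93. On the other side sema3h and ntn1a were just past it, at -1.02 and -1.10, and sema3e was under it, at -0.89. The count for synchronized cells was sensitive to single libraries: with 1 left out it was 7 to 13, with 10 or more without synchronized cell 16, 20 or 21 or non-synchronized cell 5, 10, 10-1 or 19-1, whereas the count for non-synchronized cells was 15 to 20. The shares of all measured genes with each of these libraries left out are not given here.

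Single cells weigh heavily in such means, so each library was also left out in turn. At least 2-fold differences that held with any 1 of the 20 libraries left out numbered 4 in favour of synchronized cells, or 7.41%, beside 10.8% of all measured genes. These were nrp2b, plxnb1b, plxnb2a (ENSDARG00000003811) and robo2 (ENSDARG00000078366), all receptors. In favour of non-synchronized cells 11 genes held, or 20.4%, beside 7.21% of all. They were the receptors nrp1a, plxna4, plxnb1a, plxnb3, robo3, unc5a and unc5db and the ligands sema3b, sema6e, slit2 and slit3. Holding with 1 library left out does not mean many cells. Counts of plxnb3, unc5a, sema3b and slit3 stood in 3 non-synchronized cells each and of slit2 in 2, and plxnb1b had counts in 3 synchronized cells. Without the cells richer in GABAergic markers the log2 ratios of slit2, slit3 and unc5db were 0, 0 and -0.20.

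**Figure D1:**
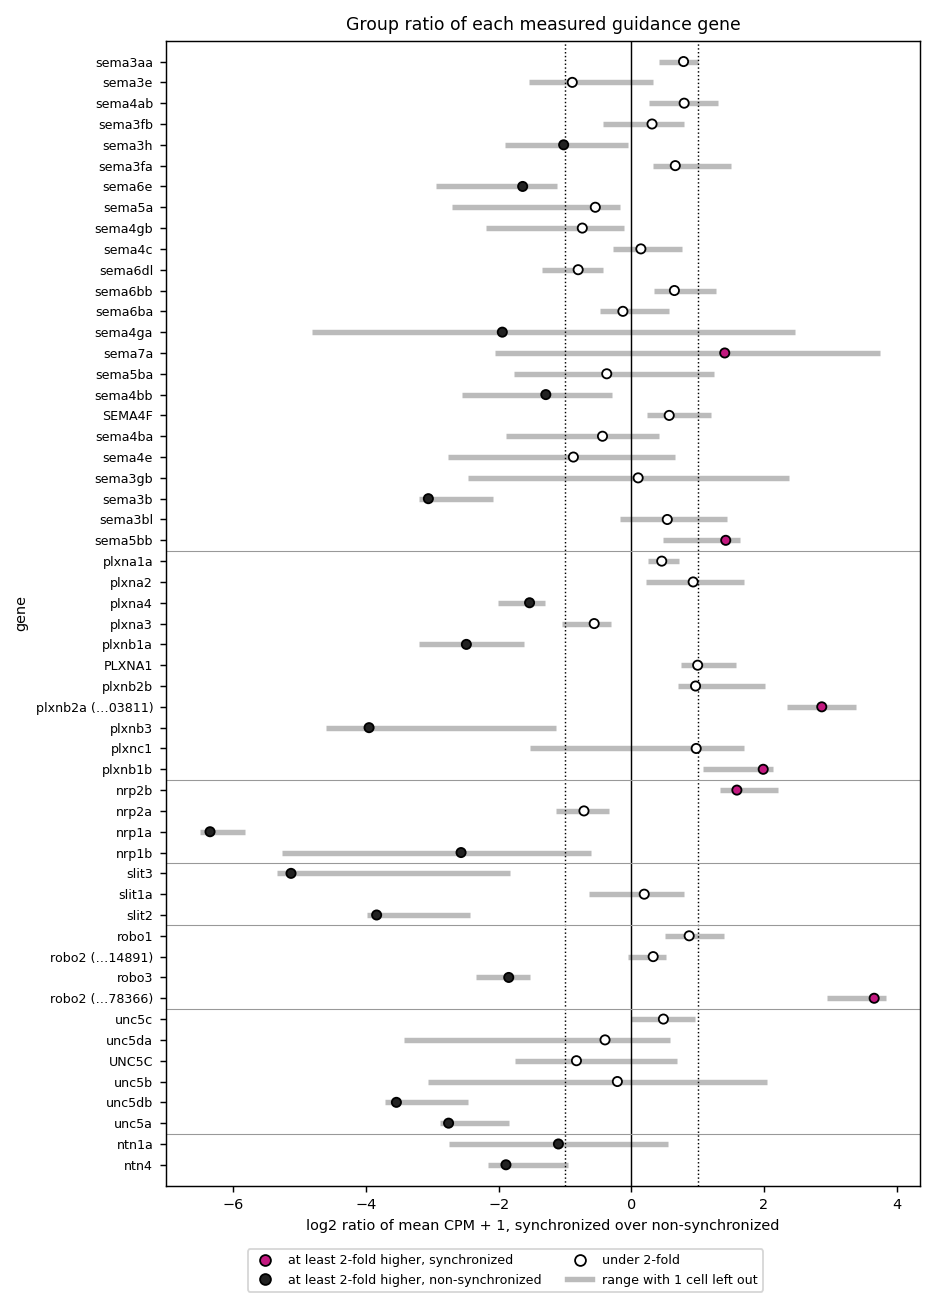
Log2 ratio of the mean CPM + 1 in synchronized over non-synchronized cells (horizontal axis) for each of the 54 measured guidance genes, grouped by family from semaphorins at the top to netrins at the bottom. Points are ratios, grey bars their range when 1 of 20 cells is left out, and dotted lines mark 2-fold; nrp1a lies farthest to the left, at -6.35, a value that depends on the 1 CPM added, and robo2 (ENSDARG00000078366) farthest to the right, at 3.66.

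Leaving out the cells rich in other markers changed the count for synchronized cells more than that for non-synchronized cells. Without the 7 cells rich in microglia or red blood cell markers, 15 of 54 guidance genes were at least 2-fold higher in synchronized cells and 22 of 54 in non-synchronized cells, beside 37.2% and 21.6% of all 13510 genes measured in those 13 cells. Among them were 4 of the 6 and 15 of the 17 genes counted above. Without the 6 cells richer in GABAergic markers, 15 of 52 measured guidance genes were at least 2-fold higher in synchronized cells and 17 of 52 in non-synchronized cells, beside 37.49% and 20.96% of all 13605 genes measured in those 14 cells. Here 5 of the 6 and 12 of the 17 remained.

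By family, the ligand and receptor sums of synchronized and non-synchronized cells overlapped throughout. Plexins summed to 919 ± 506 CPM in synchronized cells and 883 ± 322.5 CPM in non-synchronized cells. Semaphorins summed to 839.5 ± 379.5 CPM in synchronized cells and 919 ± 541.5 CPM in non-synchronized cells. Neuropilins reached 442 ± 304 CPM in synchronized cells and 367 ± 292 CPM in non-synchronized cells. Robos reached 427 ± 301 CPM in synchronized cells and 313 ± 228 CPM in non-synchronized cells. These 4 families held nearly all counts of the guidance genes, and the others were sparse. Unc5 and Dcc genes together had 55.9 ± 45.3 CPM in synchronized cells and 72.8 ± 84.6 CPM in non-synchronized cells. Slits had 8.78 ± 17.8 CPM in synchronized cells and 60.2 ± 116 CPM in non-synchronized cells. Netrins had 9.98 ± 22.3 CPM in synchronized cells and 25.4 ± 48.4 CPM in non-synchronized cells. In the last 2 families a single cell held most of the counts, and their order turned round when cells were left out, as given with the members.

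**Figure D2:**
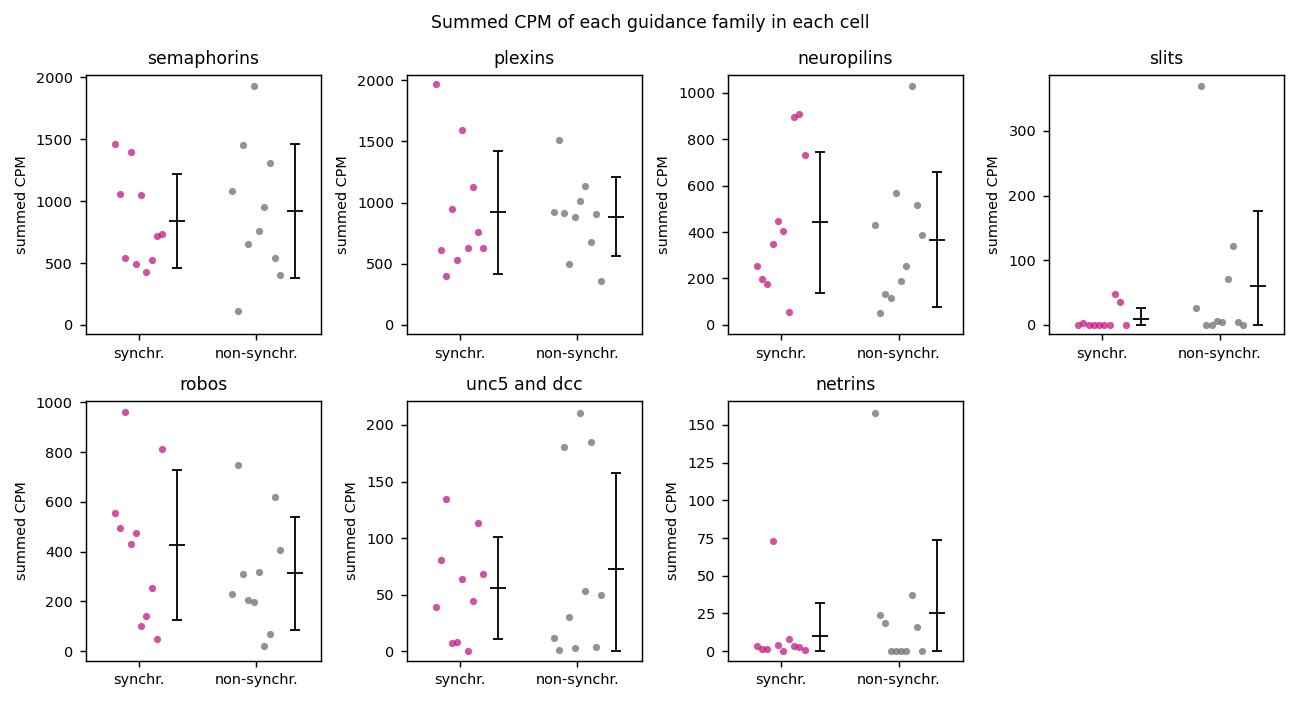
Summed CPM of each guidance family in each cell, with synchronized cells (magenta) left of non-synchronized cells (grey); the black dash and bar are the mean and SD of 10 cells, with the lower end of the bar stopped at 0. The groups overlap in all 7 families, and 1 non-synchronized cell stands far above the rest for slits (369 CPM) and 1 for netrins (158 CPM).

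The 4 neuropilin genes, co-receptors that bind class 3 semaphorins and vascular endothelial growth factor, went in different directions. Synchronized neurons had nrp2a in all 10 cells, nrp2b in 9, nrp1b in 2 and nrp1a in 0, and non-synchronized neurons had nrp2a in 8, nrp2b in 7 and nrp1a and nrp1b in 6 each. Nrp1 is known in mouse as the binding partner of Sema3a, and Nrp2 as that of Sema3f.

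No count of nrp1a (ENSDARG00000102153) was found in any of the 10 synchronized cells. Among non-synchronized cells it ranged between 0 and 303 CPM with a median of 20 CPM, and 6 of 10 cells had counts. The cells with the gene were 22, with 303 CPM, 18, with 254 CPM, 15, with 169 CPM, 6, with 40.9 CPM, 10, with 39.1 CPM, and 13, with 0.885 CPM. The gene was thus well counted in 5 cells and near 0 in the other non-synchronized cells. Summed over each group, 0 counts stood against 1328 counts (exact Poisson 95% interval 1257.5 to 1401.4). Against a floor of 3 counts set for the synchronized group, the summed level was 369-fold higher in non-synchronized cells. This is no lower bound, as the Poisson 95% interval for 0 counts reaches 3.689 counts. Of all 14404 measured genes, 4 had no counts in any synchronized cell and counts in at least 6 non-synchronized cells, or 0.0278%, and nrp1a was the only guidance gene among them. The mirror pattern, counts in at least 6 synchronized cells and in no non-synchronized cell, was found for 17 genes, or 0.118%, none of them a guidance gene. This detection rule was chosen after the values of nrp1a were seen. Its limit of 6 cells is the number of cells with counts of nrp1a, so the place of nrp1a among the 4 genes was set beforehand. With at least 5 counts asked of a cell, or after thinning, nrp1a was found in 5 non-synchronized cells and would miss this limit.

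The non-synchronized cells with nrp1a were of mixed kind by their markers. Cells 18, 6, 13 and 22 were richer in GABAergic markers (3030, 2990, 750 and 579 CPM), whereas cell 15 was rich in glutamatergic markers (695 CPM) and cell 10 had 67.4 CPM of these and 2.86 CPM of GABAergic ones. Without the 6 cells richer in GABAergic markers, nrp1a averaged 0 CPM in 9 synchronized cells and 41.6 CPM in 5 non-synchronized cells, 2 of which had counts. Cell 22 also carried 2797 CPM and cell 13 carried 2922 CPM of microglia markers, and cell 6 had 15017 CPM of red blood cell markers and 202 CPM of endothelial markers. Radial glia markers were highest in cells 18 and 22, at 1785.5 and 1112 CPM, against a non-synchronized median of 491 CPM. Their part in the nrp1a levels was not tested. Without the 7 cells rich in microglia or red blood cell markers, nrp1a averaged 0 CPM in 8 synchronized cells and 92.4 CPM in 5 non-synchronized cells, 3 of which had counts.

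The second nrp1 gene, nrp1b, was sparse in both groups. In synchronized cells nrp1b ranged between 0 and 60.5 CPM with a median of 0 (6.15 ± 19.1 CPM, 2 cells with counts). In non-synchronized cells nrp1b ranged between 0 and 324 CPM with a median of 2.57 CPM (41.4 ± 101.5 CPM, 6 cells with counts). One cell per group carried most of this, synchronized cell 5 and non-synchronized cell 22. The log2 ratio of -2.57 was -5.26 without the first and -0.61 without the second, so its size rests on single cells.

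The nrp2 genes were the common neuropilins of both groups. Levels of nrp2b in synchronized cells ran between 0 and 880 CPM, with a median of 281.5 CPM and counts in 9 of 10 cells. In non-synchronized cells they ran between 0 and 497 CPM, with a median of 38.2 CPM and counts in 7 of 10. Synchronized cells 20, 21 and 22 lay above every non-synchronized cell, and the ranges overlapped below that. The means were 358.6 ± 341 CPM in synchronized cells and 118 ± 178.5 CPM in non-synchronized cells, a 3.03-fold difference with a log2 ratio of 1.59, or 1.34 to 2.22 with 1 cell left out. Without the cells rich in microglia or red blood cell markers the means were 428 CPM in synchronized cells and 99.8 CPM in non-synchronized cells. Without the cells richer in GABAergic markers they were 380.5 CPM in synchronized cells and 177 CPM in non-synchronized cells.

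Its duplicate nrp2a gave no steady direction. In synchronized cells nrp2a ran between 2.20 and 255 CPM with a median of 59.9 CPM (77.0 ± 72.9 CPM), with counts in all 10 cells. In non-synchronized cells it ran between 0 and 397 CPM with a median of 23.5 CPM (127 ± 160 CPM), with counts in 8. The log2 ratio was -0.71, under 2-fold, and 0.94 when means of log2(CPM + 1) were compared, so the median and the mean of logs were higher in synchronized cells and the plain mean lower. Levels above 300 CPM were found in 3 non-synchronized cells (5, 15 and 22) and in 0 synchronized cells. The 5 non-synchronized cells with at least 39 CPM of nrp1a, a limit not planned in advance, had 0 to 75.03 CPM of nrp2b. Cell 13, with 0.885 CPM of nrp1a, had 103.6 CPM of nrp2b. Both genes had counts in 4 non-synchronized cells. Non-synchronized cells 10-1 and 19-1, which led their group for nrp2b, had no counts of nrp1a.

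**Figure D3:**
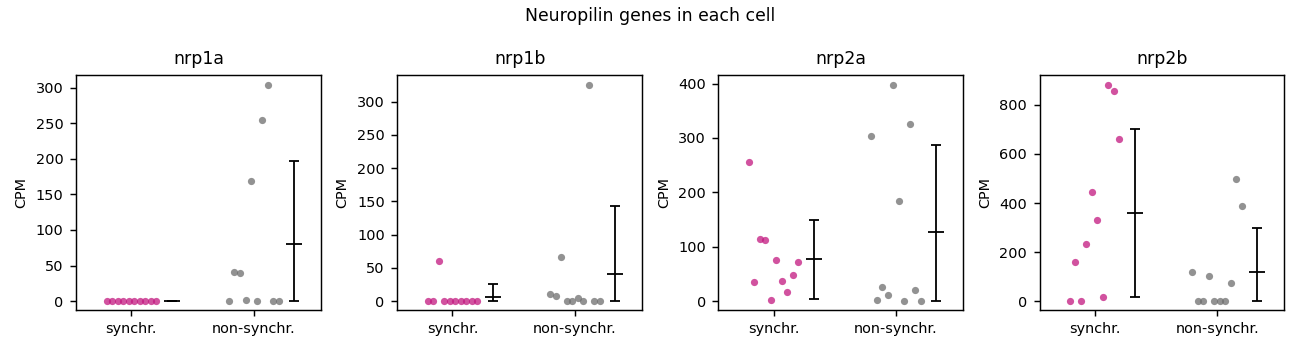
CPM of the 4 neuropilin genes in each cell, with synchronized cells (magenta) left of non-synchronized cells (grey) and the mean and SD of 10 cells as a black dash and bar, stopped at 0. All 10 synchronized cells lie at 0 for nrp1a, where non-synchronized cells reach 303 CPM, and 3 synchronized cells lie above 600 CPM for nrp2b, above every non-synchronized cell.

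Plexins are the signalling receptors of semaphorins, and act through a domain inside the cell. Of 11 measured plexin genes 7 had a higher mean in synchronized cells, beside 51.9% of all measured genes. The median log2 ratio was 0.93, beside 0.06 for all measured genes. That median is the ratio of plxna2, which was 0.22 without synchronized cell 4. At least 2-fold differences were found for 2 genes in favour of synchronized cells and for 3 in favour of non-synchronized cells, beside 26.7% and 23.3% of all measured genes. All 5 of these held with any 1 library left out, where 10.8% and 7.21% of all measured genes did in the same order. Of the 5, plxnb1b had counts in 3 synchronized cells and plxnb3 in 3 non-synchronized cells, and each had counts in 1 cell of the other group.

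Class A plexins, the partners of neuropilins and of class 6 semaphorins, were found in every cell, 4 or 5 of the 5 rows in each. Their sum was 778 ± 536 CPM in synchronized cells and 722 ± 249.5 CPM in non-synchronized cells. In synchronized cells plxna1a ran between 16.8 and 734 CPM with a median of 343 CPM (336 ± 234 CPM), and in non-synchronized cells between 5.21 and 617 CPM with a median of 239 CPM (244 ± 187 CPM). It had counts in all 20 cells and overlapped widely between the groups (log2 ratio 0.46). For plxna2, synchronized cells ran between 1.86 and 940 CPM with a median of 102 CPM (208 ± 314 CPM), and non-synchronized cells between 0 and 516 CPM with a median of 24.7 CPM (109 ± 162.5 CPM). Its log2 ratio of 0.93 was 2.499 without the 7 cells rich in microglia or red blood cell markers, among them non-synchronized cells 6 and 5, the 2 highest of their group, and 2.45 without the cells richer in GABAergic markers. Leaving out synchronized cell 4 alone gave 0.22. The second class A1 row, PLXNA1, averaged 72.2 CPM in synchronized cells and 35.6 CPM in non-synchronized cells, and plxna3 averaged 96.4 CPM and 143 CPM in the same order. Without the cells rich in microglia or red blood cell markers, the log2 ratio of PLXNA1 was 0.43 and that of plxna3 turned from -0.56 to 0.46. Without the cells richer in GABAergic markers they were 0.20 and 0.56.

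One class A plexin went clearly the other way. Levels of plxna4, whose mouse counterpart works with Nrp1 in responses to Sema3a, ran between 0 and 231.5 CPM in synchronized cells with a median of 4.42 CPM, and 6 of 10 cells had counts. Non-synchronized cells ran between 0.751 and 446 CPM with a median of 140 CPM, and all 10 had counts. Only 4 synchronized cells (4, 4-1, 14-1 and 22) were above 10 CPM, against 9 non-synchronized cells. The means were 65.3 ± 91.8 CPM in synchronized cells and 191 ± 157.5 CPM in non-synchronized cells, 2.93-fold higher in the non-synchronized group (log2 ratio -1.54, or -2.01 to -1.31 with 1 cell left out). The log2 ratio was -2.12 without the cells richer in GABAergic markers and -2.45 without those rich in microglia or red blood cell markers.

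Class B plexins, receptors of class 4 semaphorins, differed between duplicates of 1 gene name. Levels of plxnb1a ran between 0 and 74.2 CPM in synchronized cells with a median of 0.599 CPM (15.6 ± 28.7 CPM), and between 0 and 475 CPM in non-synchronized cells with a median of 1.53 CPM (92.3 ± 166 CPM). Both medians were near 0, and the log2 ratio of -2.49 came from non-synchronized cells 6, 5 and 15, with 475, 301 and 125.5 CPM. With cell 6 left out it was -1.61, and without the cells richer in GABAergic markers -1.37. Its duplicate plxnb1b was near 0 in most cells, with 3.40 CPM in synchronized cells (3 cells with counts) and 0.110 CPM in non-synchronized cells (1 cell).

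For plxnb2a (ENSDARG00000003811) synchronized cells ran between 0 and 142 CPM with a median of 16.1 CPM, and non-synchronized cells between 0 and 18.6 CPM with a median of 0.614 CPM. In 6 synchronized cells it was above 10 CPM, against 2 non-synchronized cells (15 and 22). The means, 37.5 ± 48.1 CPM in synchronized cells and 4.27 ± 6.85 CPM in non-synchronized cells, differed 8.80-fold (log2 ratio 2.87, or 2.35 to 3.39 with 1 cell left out). The log2 ratio was 2.79 without the cells richer in GABAergic markers and 2.89 without those rich in microglia or red blood cell markers. The second row of that name, ENSDARG00000094799, had counts in 4 synchronized and 0 non-synchronized cells at a mean of 1.97 CPM and 0 CPM and stayed under the limit for a measured gene. The sequences of these rows were not compared here, and how the counting treated reads that match both is not given, so the division between them is uncertain. The remaining duplicate, plxnb2b, averaged 65.7 CPM in synchronized cells and 33.1 CPM in non-synchronized cells, with counts in 9 cells of each group.

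Other plexins were rare. In synchronized cells plxnb3 had counts in 1 cell, at 5.62 CPM (mean 0.562 ± 1.78 CPM, median 0), and in non-synchronized cells in 3, the highest at 210 CPM (mean 23.2 ± 65.9 CPM, median 0). That highest cell, 18, set the size of the log2 ratio, -3.95 with it and -1.14 without it. The class C plexin plxnc1, a receptor of Sema7a in mammals, averaged 15.9 CPM in synchronized cells, of which 141 CPM stood in cell 4-1, and 7.58 CPM in non-synchronized cells. The class D plexin plxnd1, the receptor of Sema3e, had counts in 2 cells of each group and was not measured.

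**Figure D4:**
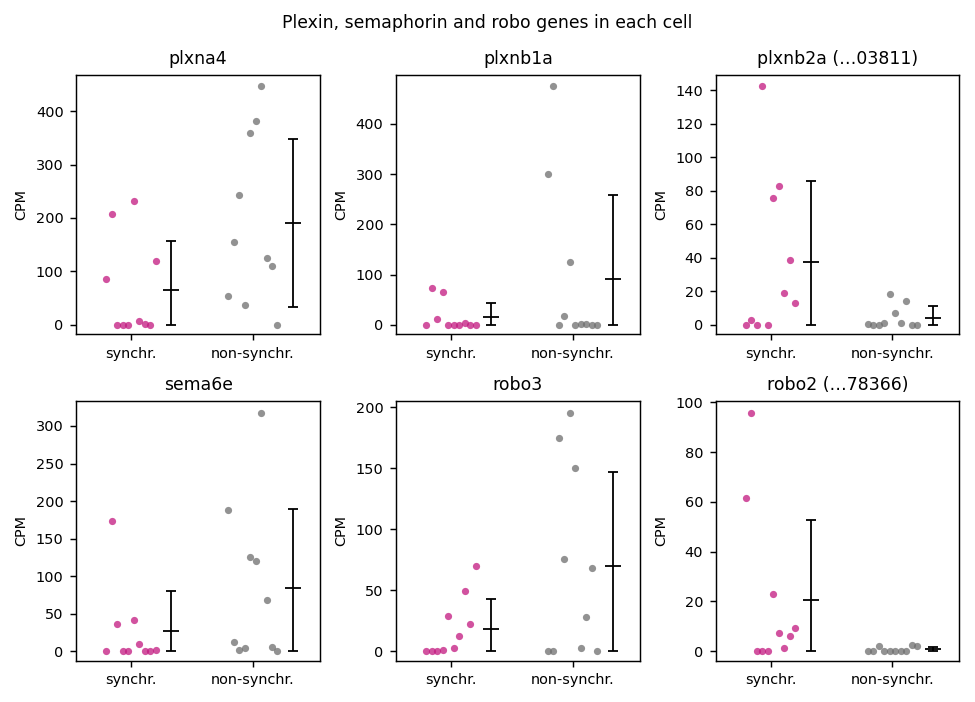
CPM in each cell of 5 receptor genes with wide group differences, plxna4, plxnb1a, robo3 and 1 row each of plxnb2a and robo2, and of the ligand sema6e, with synchronized cells (magenta) left of non-synchronized cells (grey) and the mean and SD of 10 cells as a black dash and bar, stopped at 0. Non-synchronized cells reach 446 CPM for plxna4 and 195 CPM for robo3, while for robo2 (ENSDARG00000078366) all lie at or under 2.48 CPM and synchronized cells reach 95.9 CPM.

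Semaphorins are the ligands of plexins, secreted in class 3 and bound to the membrane in classes 4 to 7. Of 24 measured semaphorins 11 had a higher mean in synchronized cells and 13 in non-synchronized cells, with a median log2 ratio of -0.25. At least 2-fold differences were found for 2 genes in favour of synchronized cells and for 5 in favour of non-synchronized cells. Of these 7 only sema3b and sema6e held with any 1 library left out. The 2 in favour of synchronized cells were sema7a and sema5bb. The second averaged 2.11 CPM in synchronized cells (3 with counts) and 0.159 CPM in non-synchronized cells (1 with counts). Its log2 ratio was 1.42, or 0.47 without synchronized cell 4-1. Of all measured genes 51.9% had a higher mean in synchronized cells, with a median log2 ratio of 0.06. At least 2-fold higher were 26.7% in synchronized cells and 23.3% in non-synchronized cells. With any 1 library left out, 10.8% and 7.21% held in the same order. Genes of class 3 were expressed by every cell, 4 to 7 of 11 rows in a synchronized cell and 3 to 7 in a non-synchronized cell.

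Among secreted semaphorins, sema3aa had counts in all but 1 of the 20 cells, and its protein is best known as a repellent of growing axons. Synchronized cells ran between 0 and 513 CPM with a median of 124 CPM (169 ± 175 CPM, 9 cells with counts), and non-synchronized cells between 2.12 and 222 CPM with a median of 77.7 CPM (97.5 ± 74.7 CPM, 10 cells with counts). The groups overlapped, with a log2 ratio of 0.79. Without the cells rich in microglia or red blood cell markers it was 1.74, and without those richer in GABAergic markers 0.82. In non-synchronized cells the same cell could therefore hold the ligand and nrp1a, and both had counts in 6 cells, against 0 synchronized cells. As sema3aa had counts in all 10 non-synchronized cells, these numbers only repeat those of nrp1a.

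The next secreted ligand, sema3e, ran between 0 and 382 CPM in synchronized cells with a median of 32.0 CPM (88.9 ± 136 CPM), and between 0 and 1019 CPM in non-synchronized cells with a median of 21.8 CPM (166 ± 313 CPM). Its log2 ratio of -0.89 was -3.41 without the cells rich in microglia or red blood cell markers and -2.32 without those richer in GABAergic markers. Non-synchronized cell 15 was kept in both cases. Without cell 15 alone the log2 ratio was 0.32, so no direction can be given. Counts of sema3e stood in 8 synchronized and 7 non-synchronized cells, whereas its receptor gene plxnd1 accompanied it in 2 and 1 of them. Levels of sema3h ran between 0 and 283 CPM in synchronized cells with a median of 1.33 CPM (54.6 ± 96.3 CPM), and between 0 and 608 CPM in non-synchronized cells with a median of 40.7 CPM (112 ± 192 CPM). The same cell 15 was the highest here, and the log2 ratio of -1.02 was -0.05 without it. The sparse sema3b had counts in 1 synchronized cell, at 0.401 CPM, and in 3 non-synchronized cells, up to 46.1 CPM.

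The sema3f duplicates, whose mouse counterpart is the ligand of Nrp2, did not pass 2-fold over all cells. Levels averaged 78.1 CPM in synchronized cells and 49.0 CPM in non-synchronized cells for sema3fa, and 98.2 CPM and 78.9 CPM in the same order for sema3fb. Without the 7 cells rich in microglia or red blood cell markers, sema3fa and sema3fb had log2 ratios of 1.62 and 1.18, and without the cells richer in GABAergic markers 1.18 and 0.80. Over all cells the log2 ratios were 0.66 and 0.31. Leaving out non-synchronized cell 22, the highest of its group for sema3fa, gave 1.497 for that gene, and leaving out synchronized cell 14-1 gave 0.33. For sema3fb the log2 ratio was -0.43 without synchronized cell 6, which had 455.6 CPM, so no direction can be given for it. Both sema3fa and nrp2b had counts in 8 synchronized cells and in 6 non-synchronized cells. By itself sema3fa had counts in 9 synchronized and 8 non-synchronized cells, and nrp2b in 9 and 7. The shared numbers therefore mostly repeat those of the single genes.

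Membrane-bound semaphorins of class 6 can act as ligands of class A plexins and also as receptors. Levels of sema6e ran between 0 and 174 CPM in synchronized cells with a median of 1.01 CPM, and between 0 and 318 CPM in non-synchronized cells with a median of 40.3 CPM. Of the synchronized cells 3 were above 10 CPM (4-1, 5 and 14-1), against 6 non-synchronized cells. The means were 26.4 ± 54.1 CPM in synchronized cells and 84.5 ± 105 CPM in non-synchronized cells (log2 ratio -1.64, or -2.95 to -1.12 with 1 cell left out). Without the cells richer in GABAergic markers the log2 ratio was -2.23, and without those rich in microglia or red blood cell markers -3.88. Counts of both sema6e and plxna4 stood in 4 synchronized cells and in 9 non-synchronized cells. As plxna4 had counts in all 10 non-synchronized cells, the second number only repeats that of sema6e.

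Classes 4, 5 and 7 were carried by few cells. A single synchronized cell (4, with 62.8 CPM) had counts of sema4ga, giving a mean of 6.28 ± 19.9 CPM and a median of 0, and 2 non-synchronized cells had them (10, with 268 CPM, and 10-1, with 2.90 CPM), giving 27.1 ± 84.6 CPM and a median of 0. The log2 ratio of -1.95 became 2.46 without cell 10, so it is the value of 1 cell. The membrane-anchored sema7a had a median of 0.201 CPM and a highest value of 196 CPM in synchronized cells (20.5 ± 61.8 CPM), and a median of 0 and a highest value of 65.6 CPM in non-synchronized cells (7.10 ± 20.6 CPM). Its log2 ratio of 1.41 became -2.05 without synchronized cell 9, and was 0.88 without the cells rich in microglia or red blood cell markers and 3.89 without those richer in GABAergic markers. Counts of sema4bb were found in 3 synchronized cells, up to 41.7 CPM (5.83 ± 13.6 CPM, median 0), and in 4 non-synchronized cells, up to 91.0 CPM (15.7 ± 29.8 CPM, median 0), with a log2 ratio of -1.29, or -0.29 without non-synchronized cell 22. One class 5 gene, sema5a, was more widespread in non-synchronized cells, with counts in 4 synchronized cells and 10 non-synchronized cells at means of 28.2 CPM and 41.5 CPM. Of the mean in synchronized cells, most came from cell 4-1 (232 CPM), and without that cell the log2 ratio of -0.54 was -2.70. Without non-synchronized cell 18, the highest of its group (128 CPM), it was -0.17. Without the cells richer in GABAergic markers, sema5a averaged 5.53 CPM in synchronized cells and 12.3 CPM in non-synchronized cells.

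Slits, large secreted proteins best known for repelling axons from the midline, were scarce, and counts of any slit gene stood in 4 synchronized cells and 8 non-synchronized cells. Counts of slit3 were found in 1 synchronized cell (4-1, with 1.60 CPM; mean 0.160 ± 0.507 CPM, median 0) and in 3 non-synchronized cells (6, 22 and 13, with 369, 27.6 and 0.443 CPM; mean 39.7 ± 116 CPM, median 0). The log2 ratio was -5.13, or -1.83 without cell 6. Counts of slit2 were absent from all 10 synchronized cells and stood in non-synchronized cells 22 and 18, with 93.8 and 39.5 CPM. Summed, 0 counts in synchronized cells stood against 226 (Poisson 95% interval 197.5 to 257.5) in non-synchronized cells, 62.8-fold higher against the set floor of 3 counts.

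Every cell with counts of slit2 or slit3, synchronized cell 4-1 included, was among the 6 cells richer in GABAergic markers, and in the other 14 cells both genes were at 0. This was noticed after the values were seen. Of those cells, 6, 13, 22 and 4-1 were also among the cells rich in microglia or red blood cell markers, while cell 18 was not. Cells 18 and 22 had 1785.5 and 1112 CPM of radial glia markers, against a median of 491 CPM in non-synchronized cells. The part of radial glia in these levels was not tested. The other measured slit gene, slit1a, ran between 0 and 45.1 CPM in synchronized cells with a median of 0 (8.30 ± 17.1 CPM, 4 cells) and between 0 and 31.8 CPM in non-synchronized cells with a median of 1.86 CPM (7.13 ± 11.7 CPM, 5 cells), a log2 ratio of 0.19, or -0.64 without synchronized cell 20. Its highest non-synchronized cells, 18 and 5, were also richer in GABAergic markers. Without the cells richer in these markers, slit1a averaged 9.04 CPM in synchronized cells and 2.75 CPM in non-synchronized cells, a log2 ratio of 1.42. The summed slit ratio, -2.65 over all cells, was 1.44 without them, with slit2 and slit3 at 0 and slit1a higher in synchronized cells.

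Robo receptors were found in every cell of both groups, and their members went in different directions. One of them, robo1, had 0.502 to 788 CPM in synchronized cells and a median of 233 CPM (264 ± 261 CPM, 10 cells with counts), and 0 to 540 CPM in non-synchronized cells and a median of 83.3 CPM (144 ± 188 CPM, 8 cells with counts). Its log2 ratio was 0.87. The main robo2 row (ENSDARG00000014891) had counts in all 20 cells, with 18.1 to 378 CPM in synchronized cells and a median of 87.4 CPM (123 ± 103 CPM), and 2.65 to 207 CPM in non-synchronized cells and a median of 94.2 CPM (97.7 ± 81.8 CPM). Its log2 ratio of 0.33 was the nearest to 0 among the 4 measured robo genes, and -0.05 without synchronized cell 4.

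Of the robos, robo3, which in mammals lowers the response of crossing axons to slits, was higher in non-synchronized cells. Synchronized cells ran between 0 and 69.7 CPM with a median of 7.41 CPM (18.6 ± 24.4 CPM), and non-synchronized cells between 0 and 195 CPM with a median of 48.0 CPM (69.5 ± 77.5 CPM). Non-synchronized cells 15, 10, 17 and 13 were above every synchronized cell, and 3 cells of each group were at 0 or, for 1 non-synchronized cell, at 0.401 CPM. The difference was 3.74-fold (log2 ratio -1.85, or -2.35 to -1.53 with 1 cell left out), and -2.46 without the cells richer in GABAergic markers.

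The second row named robo2 (ENSDARG00000078366) had the largest ratio in favour of synchronized cells among measured guidance genes. It ran between 0 and 95.9 CPM in synchronized cells with a median of 6.78 CPM (20.5 ± 32.5 CPM, 7 cells with counts), and between 0 and 2.48 CPM in non-synchronized cells with a median of 0 (0.696 ± 1.12 CPM, 3 cells with counts). In 6 synchronized cells it was above all 10 non-synchronized cells. The means differed 29.4-fold (log2 ratio 3.66, or 2.95 without cell 4-1), and the log2 ratio was 2.45 without the cells richer in GABAergic markers. Why 2 rows carry this name, and how their reads were divided, is not given, and the main row did not share the difference. The endothelial robo4 was near 0, with 0.928 CPM in synchronized cells and 0.929 CPM in non-synchronized cells.

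Receptors of netrins were sparse, and dcc itself, the attractive receptor, had counts in 1 synchronized cell and 3 non-synchronized cells and a mean of 0.778 CPM over all cells, under the limit for a measured gene. The Unc5 receptors, which turn the response to netrins into repulsion, were led by unc5c. It ran between 0 and 134 CPM in synchronized cells with a median of 7.12 CPM (36.5 ± 51.2 CPM, 7 cells), and between 0 and 93.1 CPM in non-synchronized cells with a median of 6.36 CPM (25.8 ± 34.9 CPM, 6 cells). Its log2 ratio was 0.48, or -0.01 without synchronized cell 5 and -0.26 without the 7 cells rich in microglia or red blood cell markers, so no direction can be given. For unc5da, synchronized cells ran between 0 and 75.4 CPM with a median of 0 (7.59 ± 23.8 CPM, 2 cells), and non-synchronized cells between 0 and 60.7 CPM with a median of 0.544 CPM (10.3 ± 20.1 CPM, 6 cells). Almost all of the first was in cell 4-1, and the log2 ratio of -0.40 was -3.43 without it and 0.59 without non-synchronized cell 22, so no direction can be given.

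The lowest Unc5 genes lay toward non-synchronized cells. Counts of unc5db stood in 2 synchronized cells, at most 1.32 CPM, and in 5 non-synchronized cells, up to 77.2 CPM. Those above 2 CPM were cells 22, 13 and 18, all richer in GABAergic markers, and without such cells the log2 ratio of -3.54 was -0.20. Counts of unc5a stood in 1 synchronized cell, at 0.570 CPM, and in 3 non-synchronized cells, at most 36.3 CPM, with a log2 ratio of -2.76.

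Of the netrins, ligands of Dcc and Unc5, only ntn1a and ntn4 were measured. Levels of ntn1a ran between 0 and 73.1 CPM in synchronized cells with a median of 2.13 CPM (9.39 ± 22.5 CPM, 7 cells), and between 0 and 158 CPM in non-synchronized cells with a median of 1.91 CPM (21.3 ± 48.7 CPM, 5 cells). One cell of each group set the mean, synchronized cell 6 and non-synchronized cell 5. The log2 ratio of -1.10 was 0.55 without cell 5 and -2.75 without cell 6, so no direction can be given. For ntn4, counts stood in 2 synchronized cells, up to 2.51 CPM (0.372 ± 0.842 CPM, median 0), and in 2 non-synchronized cells, up to 25.9 CPM (4.09 ± 8.998 CPM, median 0), a log2 ratio of -1.89. Both ntn1a and dcc had counts in 1 synchronized cell and in 2 non-synchronized cells.

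**Figure D5:**
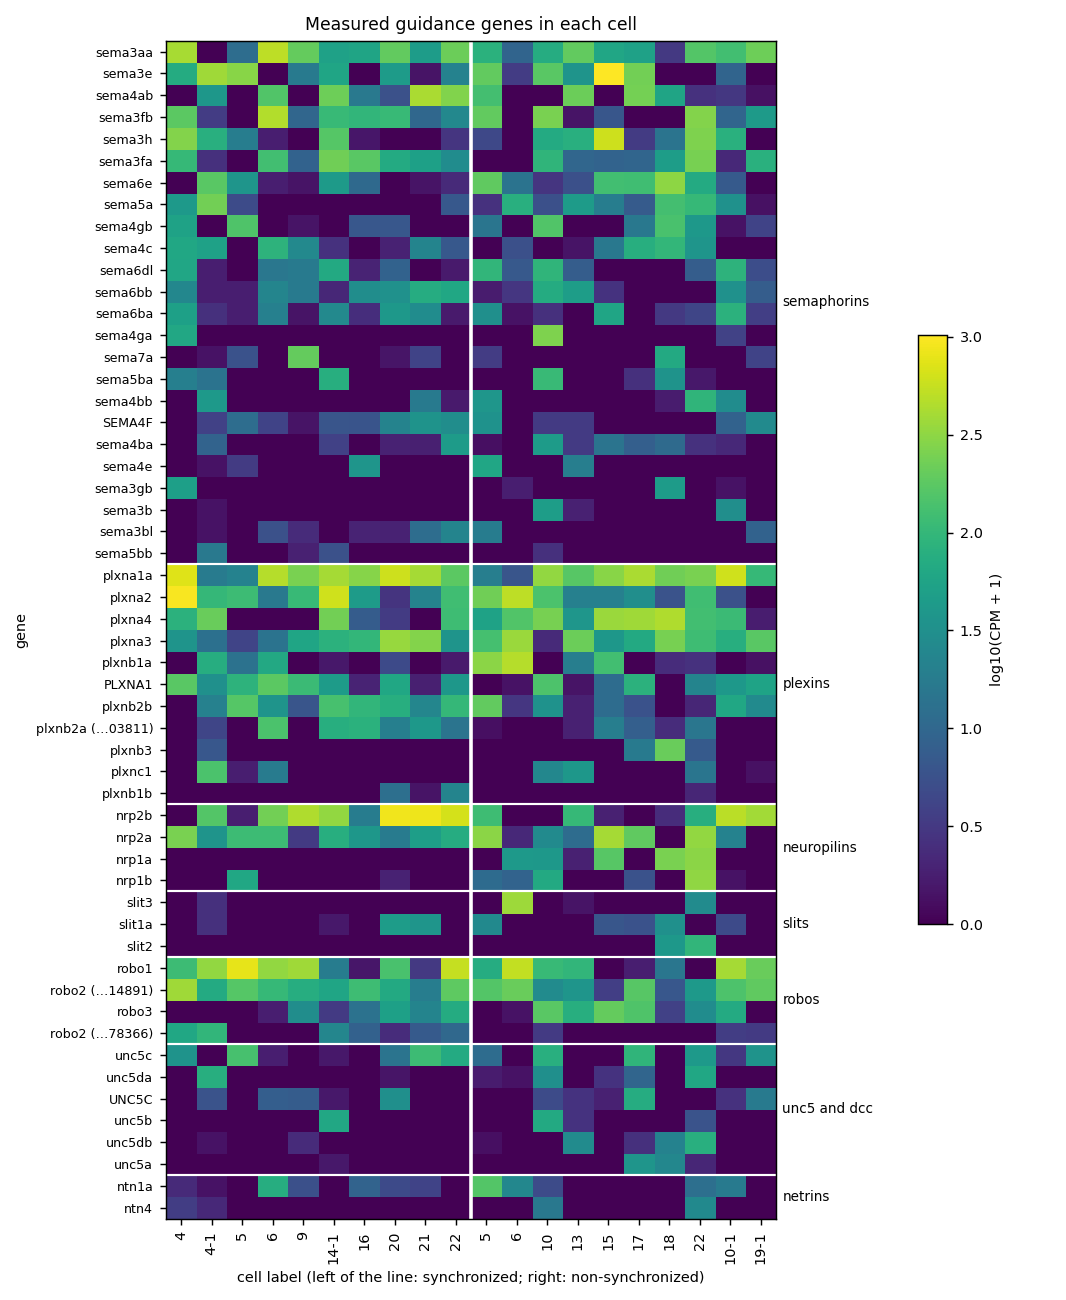
Level of the 54 measured guidance genes in each of 20 cells, as log10(CPM + 1), with synchronized cells left of the white line and non-synchronized cells right of it, and genes ordered by family. Counts of plxna1a and robo2 (ENSDARG00000014891) stand in every column, whereas nrp1a and slit2 are dark in all 10 synchronized cells and plxna4 is bright in 9 of 10 non-synchronized cells.

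The 11 rows not measured were sema3ga, sema3c, sema4aa, sema3d, the second plxnb2a row, plxnd1, slit1b, robo4, dcc, ntn1b and ntn2. In each group their means were at most 1.97 CPM, and each had counts in at most 4 synchronized and 3 non-synchronized cells.

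Genes that act with these receptors were taken from lists drawn up by their known roles, not by their ratios, though with earlier results of these data known. Of the co-receptors of semaphorins and effectors of plexins, 42 were measured, and 13 were at least 2-fold higher in synchronized cells (31.0%) and 8 in non-synchronized cells (19.05%), beside the 26.7% and 23.3% of all genes given above. Among them cntn2, an adhesion protein of axons, averaged 49.9 ± 91.2 CPM in synchronized cells and 2.41 ± 4.25 CPM in non-synchronized cells (log2 ratio 3.90, or 2.80 without synchronized cell 5). The adaptor gipc1, which binds the tail of neuropilin in mammals, averaged 2.84 ± 5.37 CPM in synchronized cells and 136 ± 338.5 CPM in non-synchronized cells, where cell 15 had 1092 CPM (log2 ratio -5.16, or -2.998 without the cell). The cofilin gene cfl1l had counts in synchronized cell 5 alone (297 CPM) and in 0 non-synchronized cells.

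For effectors of slit and robo signalling, 4 of 23 measured genes were at least 2-fold higher in synchronized cells (17.4%) and 5 in non-synchronized cells (21.7%). A pair of relatives that both lengthen actin filaments downstream of robos went in opposite directions. Levels of vaspb averaged 37.3 ± 35.3 CPM in synchronized cells and 2.45 ± 7.196 CPM in non-synchronized cells (log2 ratio 3.47), and enah averaged 16.4 ± 24.2 CPM in synchronized cells and 72.0 ± 89.6 CPM in non-synchronized cells (log2 ratio -2.07). The Ras exchange factor sos1 averaged 22.1 ± 24.0 CPM in synchronized cells and 4.29 ± 8.28 CPM in non-synchronized cells (log2 ratio 2.13). For netrin receptors and effectors, 5 of 16 measured genes were at least 2-fold higher in synchronized cells (31.2%) and 3 in non-synchronized cells (18.8%). The actin-binding ablim1a averaged 27.2 ± 35.0 CPM in synchronized cells and 7.5 ± 9.65 CPM in non-synchronized cells (log2 ratio 1.73). The Dcc relative neo1a averaged 22.9 ± 31.8 CPM in synchronized cells and 57.6 ± 94.5 CPM in non-synchronized cells (log2 ratio -1.29), or -0.24 without the cells rich in microglia or red blood cell markers. The GTPase rac1b, with counts in 2 cells of each group, averaged 1.40 CPM in synchronized cells and 26.3 CPM in non-synchronized cells, and its log2 ratio of -3.51 became 1.03 without non-synchronized cell 22.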

How the data were processed

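Single neurons were collected by pipette from the Dc region, and, per the labels, libraries were prepared with an Illumina TruSeq stranded mRNA kit, whereas a figure of the study names Smart-seq2. For 20 libraries and 18820 genes the authors deposited unnormalized counts. The submitters' processing notes list danRer11 as build and edgeR 3.14.0 as tool. For the aligner, the counter and its strand setting, a name was not given in the sources used here. Symbols are those of the table, and 64 of the 66 identifiers occur in the reference gene names. No columns were left unused.

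CPM was computed from the deposited counts with each library's total. CPM is not divided by transcript length, so levels are compared between groups and not between genes, and sums over a family weigh long transcripts more. The log2 ratio of group means was taken after 1 CPM was added to each mean. A gene was measured at a mean of at least 1 CPM over 20 libraries. Values per cell are given for the 27 members with a mean of at least 10 CPM and a ratio past 2-fold, or with 1 of the 2 highest means of their family, and for some others by their counts and ranges. Partner genes named were the 3 per list with the largest ratio in either direction at a mean of at least 10 CPM. Members and lists were chosen with earlier results of these data known. Alternatives were TMM (edgeR 4.0.16) and poscounts (DESeq2 1.42.0) scaling, other totals, filters and added CPM, summed counts, means of logs, thinning to 795838 counts, and leaving out libraries. Leaving out the 6 libraries with more GABAergic than glutamatergic marker CPM was added after seeing the data. Intervals are exact at 95% and cover counting error only. The ratio and count steps were tested on simulated data, in which unchanged genes also passed 2-fold through the spread between cells and some changed genes did not, so counts past 2-fold describe these cells and are read beside the share of all genes. Libraries that share a label number, synchronized 4 and 4-1 and non-synchronized 10 and 10-1, gave 131 and 193 for the chi-square of their counts over its degrees of freedom. The other pairs within groups gave 79.5 to 335, so each library was taken as its own cell. Between groups, the cells numbered 5, 6 and 22 gave 195.7, 217.6 and 106.2, within the 85.15 to 280 of the other 97 pairs. These values also grow with library depth, so they cannot tell whether cells share a fish or a session. Both cells numbered 5 were rich in red blood cell markers (11268 CPM in the synchronized and 6669 CPM in the non-synchronized cell). For number 6 these markers stood at 509 and 15017 CPM in the same order, and for number 22 at 0 and 13.2 CPM. Whether a number marks a batch was not tested. Scripts ran under R 4.3.3 and Python 3.11.15, with pandas 2.3.3, numpy 2.4.6, matplotlib 3.10.9 and scipy 1.17.1.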

Additional observations from a re-analysis of the deposited data

Results flagged for a closer look

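In 27 of 69 groups of 10 cells examined (family sums, members described per cell and the number of members per cell), the highest cell stood apart from the next by more than Dixon's 95% critical share of the whole range. That share is set so that about 1 in 20 groups stand apart by chance, for values without the skew of single-cell counts. The 27 of 69 cannot be read against it. Groups with counts in 1 cell only, as for sema4ga, plxnb3 and slit3 in synchronized cells, always stand apart. Members were chosen in part by a ratio of means that single cells can drive, and family sums repeat their members. The same share over all genes is not given here.

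Among receptors, synchronized cells stood apart for nrp2a (cell 4, 255 CPM, next 114 CPM), nrp1b (cell 5, 60.5 CPM, next 0.929 CPM), plxnb3 (cell 4-1, 5.62 CPM, next 0), robo2 (ENSDARG00000014891; cell 4, 378 CPM, next 184 CPM) and unc5da (cell 4-1, 75.4 CPM, next 0.465 CPM). Non-synchronized cells stood apart for plxna2 (cell 6, 516 CPM, next 229 CPM), plxnb3 (cell 18, 210 CPM, next 15.8 CPM), nrp1b (cell 22, 324 CPM, next 65.8 CPM), unc5da (cell 22, 60.7 CPM, next 30.9 CPM) and the summed neuropilins (cell 22, 1029.5 CPM, next 566.5 CPM).

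Among ligands, synchronized cells stood apart for sema6e (cell 4-1, 174 CPM, next 42.2 CPM), sema4ga (cell 4, 62.8 CPM, next 0), sema7a (cell 9, 196 CPM, next 4.72 CPM), sema4bb (cell 4-1, 41.7 CPM, next 15.9 CPM), slit3 (cell 4-1, 1.60 CPM, next 0), ntn4 (cell 4, 2.51 CPM, next 1.203 CPM), and ntn1a and the summed netrins (cell 6, 73.1 CPM, next 8.03 CPM for both). Non-synchronized cells stood apart for sema3e (cell 15, 1019 CPM, next 231 CPM), sema3h (cell 15, 608 CPM, next 267 CPM), sema4ga (cell 10, 268 CPM, next 2.90 CPM), sema7a (cell 18, 65.6 CPM, next 3.004 CPM), sema4bb (cell 22, 91.0 CPM, next 37.1 CPM), slit3 and the summed slits (cell 6, 369 CPM for both, next 27.6 and 121 CPM), ntn1a (cell 5, 158 CPM, next 23.6 CPM) and the summed netrins (cell 5, 158 CPM, next 37.5 CPM). Synchronized cell 4-1 was the highest in 5 of these, and it carried 683 CPM of GABAergic, 648 CPM of oligodendrocyte and 1677 CPM of red blood cell markers; their part in these levels was not tested.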

How the results depend on the processing

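No paired analysis was possible because no test was computed and the labels do not say what the numbers 5, 6 and 22, shared by both groups, stand for. The count of 6 guidance genes at least 2-fold higher in synchronized cells was 3 with 10 CPM added, 12 with means of log2(CPM + 1), 15 without libraries rich in microglia or red blood cell markers, 15 without those richer in GABAergic markers, 12 without libraries with the suffix -1, and 7 to 13 with 1 library left out; it passed 1.5 times the count without synchronized cell 16, 20 or 21 (10, 10 and 11) or non-synchronized cell 5, 10, 10-1 or 19-1 (11, 13, 10 and 10). The count of 17 in non-synchronized cells was 11 with 10 CPM added and 15 to 20 with 1 library left out. Of these settings, shares of all genes are given only without the microglia-rich or blood-rich and without the GABA-rich libraries. There 37.2% and 37.49% of all measured genes were at least 2-fold higher in synchronized cells. For the other settings, a change in the guidance genes cannot be told from a change in all genes. The median log2 ratio of measured members stayed below 0 in every alternative run, at -0.51 to -0.002603 with 1 library left out. Among differences of at least 2-fold, directions turned round for sema4ga (2.46 without non-synchronized 10; -4.81 to 2.46 over single libraries left out), sema7a (-2.05 without synchronized 9; -2.05 to 3.75), ntn1a (0.55 without non-synchronized 5, -2.75 to 0.55; 1.37 without the microglia-rich or blood-rich and 1.22 without the GABA-rich libraries), summed netrins (0.73 and 0.59 without these sets) and summed slits (1.44 without the GABA-rich libraries). Only the family sums and the 27 members described per cell were followed through all alternatives. Other members changed sign too, such as plxna3 (-0.56, and 0.46 without the microglia-rich or blood-rich libraries) and sema3fb (0.31, and -0.43 without synchronized 6). Among those followed, smaller differences changed sign in at least 1 alternative for sema3e (0.32 without non-synchronized 15), nrp2a (0.94 with means of logs), slit1a, robo2 (ENSDARG00000014891), unc5c, unc5da and the summed semaphorins, plexins, and Unc5 with Dcc. The other values of family sums (235 of 238) moved by less than the spread between cells, these included, as did 891 of 918 values of members. That spread is wide, so these shares do not show that the ratios are steady. Without the microglia-rich or blood-rich libraries, sema3e went from -0.89 to -3.41 and sema6e from -1.64 to -3.88, and both counted as within the spread. For all measured genes the median ratio was 0.06 by library totals, -0.06 by TMM and -0.16 by poscounts, and all 6 and all 17 genes remained past 2-fold under both scalings. Depth limits detection: 27 genes had counts in more synchronized and 29 in more non-synchronized cells, and 9 were equal. After thinning these numbers were 20, 24 and 21. The same numbers over all genes are not given here.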
